A study of Mus musculus with 72 samples.

Results

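The genes described here are 44 genes of DNA replication and S phase, chosen by their known function from the 19938 genes that had a probe set with a single symbol in the platform annotation. Each was represented by its brightest probe set, and all 44 were present. The choice was made with earlier results of these data known. The genes fall into 10 roles, from the MCM2-7 helicase to the E2F factors and cyclin E. Expression was read on 72 Affymetrix Mouse Gene 1.0 ST arrays, in marrow from mouse models of acute promyelocytic leukaemia (APL) with or without retinoic acid (RA). The study compared the response to RA between leukaemias that differ in their fusion protein or in Pml.

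In the transgenic model the leukaemias carried PML/RARA or PLZF/RARA, both on a wild type (WT) background. In the viral transduction model all leukaemias carried PML/RARA, on a WT or a pml-/- background, so that the untreated controls of that comparison carried PML/RARA too. Every leukaemia was taken untreated or after RA, at 6 h and at 12 h. For transgenic PML/RARA there were 4 untreated and 8 treated arrays per time point, and for transgenic PLZF/RARA 2 and 4. The viral groups held 4 untreated and 8 treated arrays per background at the early time and 2 and 4 at the late one. The labels used here state neither the promoter of the transgene, the dose of RA nor the age of the mice. Nor do they say that each array is a different mouse or leukaemia, so the p-values measure the spread between these arrays, which may be technical.

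Before a cell divides it copies its genome once, in S phase. Origins are marked by the origin recognition complex and licensed by CDC6 and CDT1, which load the MCM2-7 helicase. CDC45 and GINS then activate the helicase, DNA polymerases copy the strands with PCNA as a sliding clamp, and CAF-1 rebuilds chromatin behind the fork. Many of the genes are known targets of E2F transcription factors, which are released from the retinoblastoma protein when cells leave G1. Promyelocytes divide actively, while mature neutrophils no longer divide, and RA is known to make PML/RARA leukaemia cells differentiate.

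The deposited values are log2 signals, with array medians from 6.56 to 6.81, and no arrays were identical. The 44 genes were well expressed, with means over the 72 arrays from 7.48 to 12.23, where the median gene had 6.94. The mean of 10 promyelocyte markers was high on every array, from 11.32 to 12.43. Among them Ms4a3 varied most in level, from 5.76 to 12.64. Transgenic and viral arrays share no batch, so the models were compared only through differences within each model. The smallest groups had 2 arrays, and the number of arrays limits the precision. In bulk marrow, fewer cells in S phase and less RNA of these genes per cell cannot be told apart.

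Promoter sequences did not enter the choice of the genes, though many of the genes are known E2F targets. Windows from 250 bases before to 50 bases after the annotated start (RefSeq, GRCm38.p6) were found for 37 of the 44 genes, and the genes without a window were Mcm4, Gins1, Gins2, Gins4, Rfc2, Pole and Ccne2. The E2F-type letters TTTCCCGC, TTTCGCGC, TTTGCCGC and TTTGGCGC were searched on both strands, where matches can overlap. They stood in a window of 15 of the 37 genes (40.5%), against 543 of the 15614 genes of the array with a window (3.48%). Of 33 other replication factors with a window, 10 held them (30.3%). CCAAT, the letters bound by NF-Y, stood in 24 of the 37 genes (64.9%) and in 41.7% of the array's genes. Of the 33 other replication factors, 16 held CCAAT (48.5%). The stretches below are shown because they belong to the lead genes of 4 roles and to the other matching genes with the largest falls at 12 h in transgenic PML/RARA leukaemia, and capitals mark the E2F-type letters.
Mcm3: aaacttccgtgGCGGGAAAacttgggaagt
Pole2: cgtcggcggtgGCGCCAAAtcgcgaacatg
Lig1: cgccaaagtgcGCGCGAAAtctgtgtggcg
E2f2: gcggcatatagTTTGGCGCtaa
Orc1: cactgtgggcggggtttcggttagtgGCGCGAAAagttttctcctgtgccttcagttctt
Mcm7: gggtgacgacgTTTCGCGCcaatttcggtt
Pold1: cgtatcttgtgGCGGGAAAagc
Pola1: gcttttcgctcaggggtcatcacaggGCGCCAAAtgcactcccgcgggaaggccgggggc
They are written 5′ to 3′ along the gene. On the minus strand lie Mcm3 at chr1:20820275-20820304, Pole2 at chr12:69228162-69228191, Mcm7 at chr5:138171849-138171878, Pold1 at chr7:44548766-44548787 and Pola1 at chrX:93632260-93632319. On the plus strand lie Lig1 at chr7:13278841-13278870, E2f2 at chr4:136172302-136172323 and Orc1 at chr4:108579401-108579460. The letters begin 20 bases after the start in Mcm3, 11 in Pole2, 27 in Lig1, 40 in E2f2 and Pold1 and 17 in Mcm7. In Orc1 and Pola1 they lie before it, at -27 and -138. Mcm3 and Mcm7 each held 1 further match. The other genes with a match were Mcm5, Mcm6, Gins3, Cdc6, Cdt1, Rfc3 and Uhrf1.

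**Figure D1:**
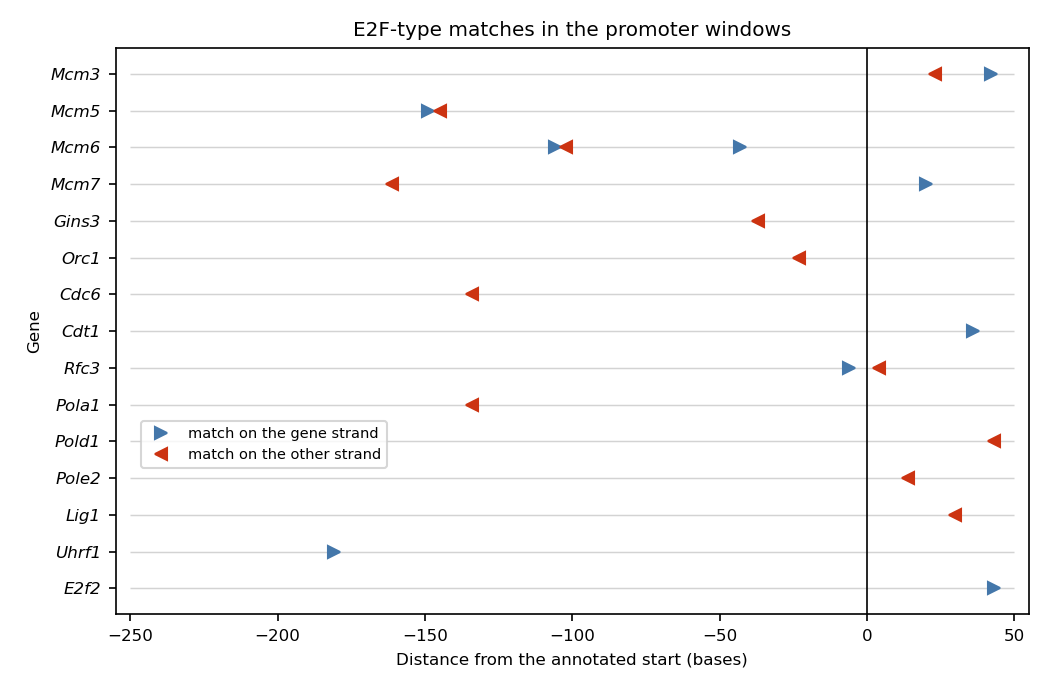
Distance in bases of each E2F-type match from the annotated start (vertical line) in the 15 genes with a match, 1 grey line per gene over the span of a 300-base window. Mcm7, Lig1, Uhrf1 and E2f2 have more than 1 window, and each match is placed from the start of its own window's gene model. Triangles pointing right are matches on the gene's strand and triangles pointing left are matches on the other strand. The matches lie on both sides of the start.

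The first comparison asked what RA did to the replication genes in transgenic leukaemia with PML/RARA. After 6 h, 21 of the 44 genes fell and 1 rose, and at 12 h 40 fell and 1 rose (limma, adjusted p under 0.05 over all 19938 genes). Of all genes, 8.54% fell and 5.81% rose at 6 h, and 11.7% fell and 9.88% rose at 12 h. The median log2 change of the 44 genes was -0.32 at 6 h and -0.59 at 12 h, where that of all genes was 0.02 and -0.01. At 6 h every RA array lay below every untreated array for 28 of the 44 genes, a pattern found in 7.75% of all genes. At 12 h this held for 27 of the 44 and for 6.86% of all genes.

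The mean of the 44 genes on each array separated the groups too. Untreated transgenic PML/RARA arrays had means of 9.96 to 10.01 at 6 h and 9.88 to 10.06 at 12 h, and RA arrays 9.55 to 9.78 and 9.12 to 9.72. The RA arrays at 12 h were spread more widely than any other transgenic group, with an SD of 0.21. Arrays of the 6 h groups came from 2 batches, and within batch 1 alone 14 genes fell and 1 rose, where 4.75% of all genes fell and 3.45% rose. Within batch 2 alone 20 fell and 1 rose, where 5.41% of all genes fell and 5.53% rose.

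**Figure D2:**
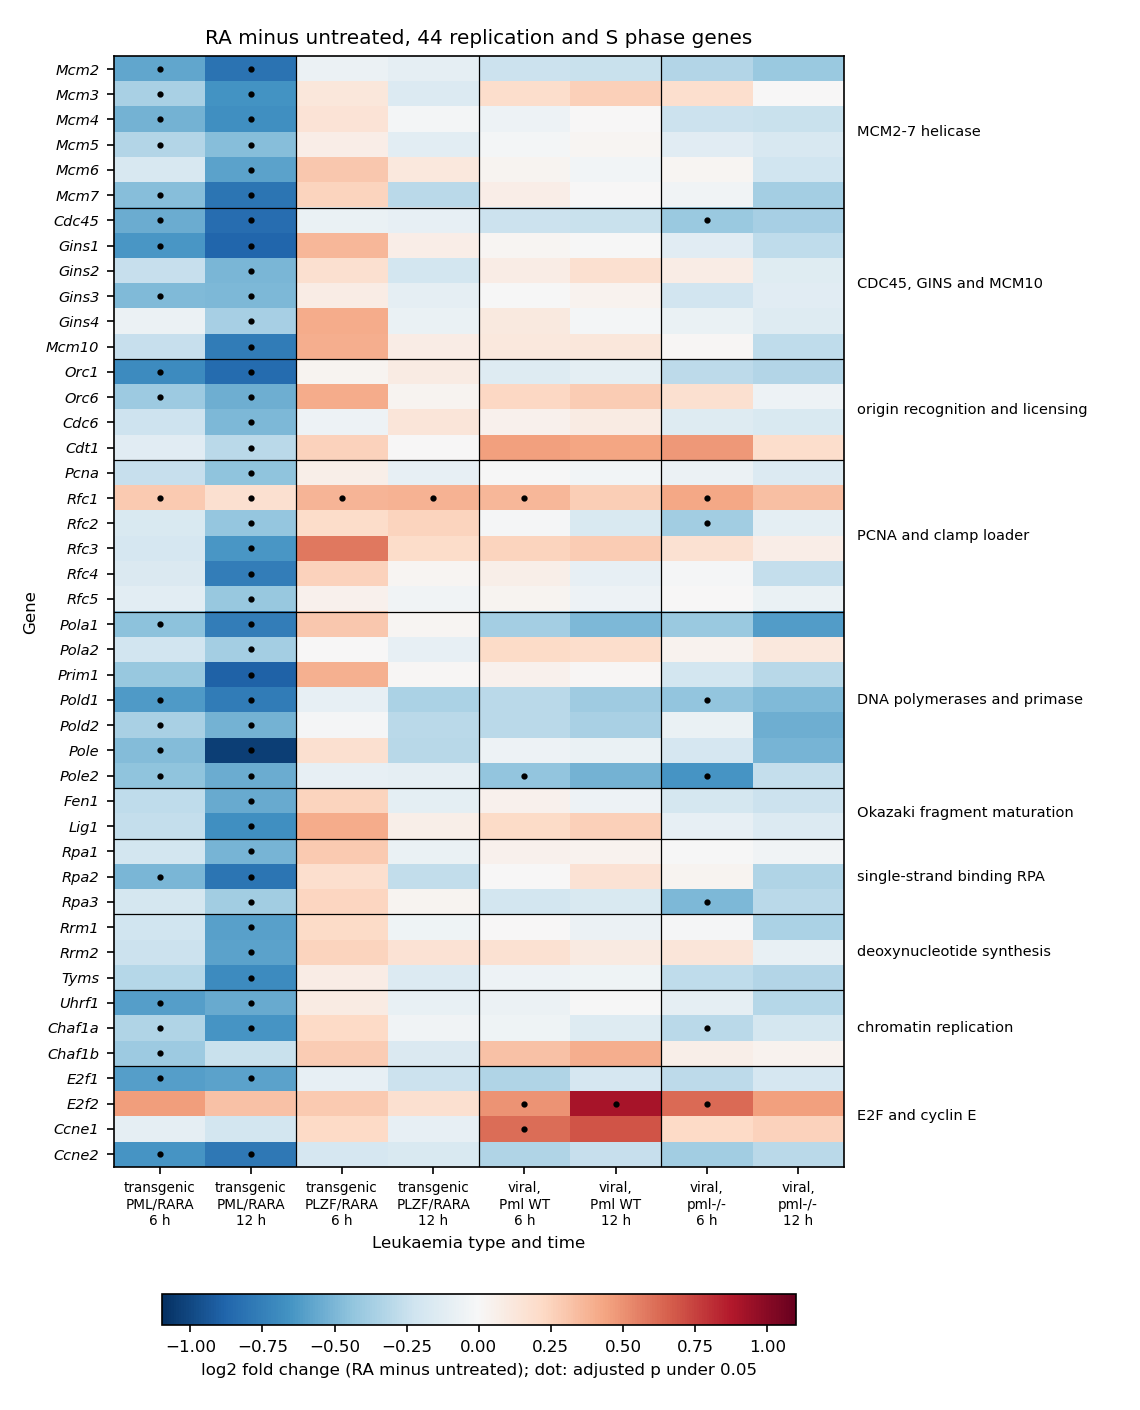
Log2 change (RA minus untreated, colour) of the 44 genes (rows, grouped by role) in the 4 leukaemia types at 6 h and 12 h (columns), with a dot where the adjusted p is under 0.05. The transgenic PML/RARA columns hold 21 falls at 6 h and 40 at 12 h, while Rfc1 has a dot for a rise in 6 of the 8 columns.

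**Figure D3:**
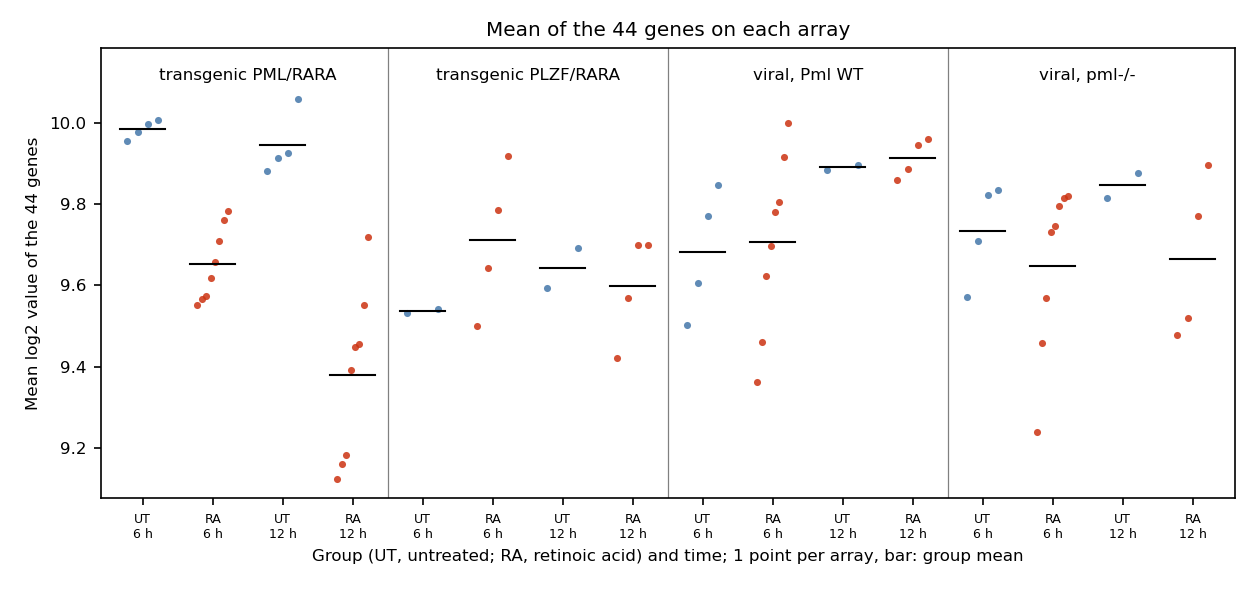
Mean log2 value of the 44 genes on each array (1 point per array, untreated blue, RA red), with the group mean as a bar. In transgenic PML/RARA leukaemia all RA arrays lie below all untreated arrays at both times.

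Of the 6 subunits of the MCM2-7 helicase, which unwinds DNA at the fork, 5 fell at 6 h and all 6 at 12 h. The lead gene, Mcm3, had 10.20, 10.24, 10.22 and 10.20 on the untreated arrays at 6 h, and the 8 RA arrays ran from 9.73 to 9.98 with a median of 9.86. At 12 h untreated Mcm3 had 10.20, 10.31, 10.34 and 10.32, and the RA arrays ran from 9.32 to 9.92 with a median of 9.70. The groups did not overlap at either time. The log2 change of Mcm3 was -0.36 ± 0.09 (SE) at 6 h (limma adjusted p = 0.00342) and -0.66 ± 0.08 at 12 h (adjusted p = 2.34e-07). Mcm2 fell by 0.57 and 0.81 on the log2 scale and Mcm7 by 0.47 and 0.80. Mcm6 missed the threshold at 6 h (-0.17 ± 0.10, adjusted p = 0.289) and fell by 0.59 at 12 h.

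CDC45 and the 4 GINS proteins complete the active helicase, and MCM10 helps to start it. Of these 6 genes, 3 fell at 6 h and 6 at 12 h. Untreated Cdc45 had 9.94, 10.04, 10.05 and 10.16 at 6 h and 9.95, 9.99, 10.02 and 10.05 at 12 h. With RA it ran from 9.33 to 9.81 (median 9.51) at 6 h and from 8.83 to 9.68 (median 9.07) at 12 h, below every untreated array. The change was -0.54 ± 0.11 at 6 h (limma adjusted p = 0.000656) and -0.84 ± 0.11 at 12 h (adjusted p = 3.44e-07). Gins1 was among the 3 largest falls at both times (-0.64 ± 0.18 and -0.87 ± 0.17), and Gins3 fell by 0.49 and 0.50. Mcm10 (-0.25 ± 0.12 at 6 h, -0.77 ± 0.11 at 12 h), Gins2 (-0.26 and -0.50) and Gins4 (-0.06 and -0.36) passed the test at 12 h only.

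The 4 genes of origin recognition and licensing all fell at 12 h, and Orc1 and Orc6, subunits of the origin recognition complex, also at 6 h. Untreated Orc6 had 9.71, 9.68, 9.75 and 9.59 at 6 h, and RA arrays ran from 9.11 to 9.38 with a median of 9.28, without overlap. At 12 h untreated Orc6 had 9.27, 9.71, 9.57 and 9.47 and RA arrays ran from 8.57 to 9.34 (median 8.93), so that the groups overlapped. Its changes were -0.40 ± 0.13 (limma adjusted p = 0.035) and -0.54 ± 0.13 (adjusted p = 0.00152), and the 6 h call was lost in 8 of 22 alternative analyses. Orc1 had the largest fall of all 44 genes at 6 h (-0.69 ± 0.16, adjusted p = 0.00194) and fell by 0.84 at 12 h. Cdc6 and Cdt1, which load the helicase, changed by -0.23 and -0.13 at 6 h without passing the test and fell by 0.50 and 0.29 at 12 h.

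PCNA, the sliding clamp, and its loader RFC gave the one called rise. At 6 h 0 of the 6 genes fell, and at 12 h Pcna (-0.44 ± 0.09), Rfc2 (-0.42), Rfc3 (-0.64), Rfc4 (-0.76) and Rfc5 (-0.41) fell. Rfc1, the large subunit of the loader, rose at both times. Its untreated values were 9.88, 9.78, 9.71 and 9.54 at 6 h against 9.79 to 10.15 with RA (median 9.94). At 12 h they were 9.55, 9.81, 9.40 and 9.61 against 9.62 to 9.86 (median 9.80). The groups overlapped at both times. The rise was 0.29 ± 0.07 (limma adjusted p = 0.00242) and 0.18 ± 0.07 (adjusted p = 0.0481), and the 12 h call was lost in 14 of 21 alternative analyses. No E2F-type letters were found in the Rfc1 window, nor in those of Pcna, Rfc4 and Rfc5, which fell at 12 h.

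The DNA polymerases and primase held the largest fall at 12 h, that of Pole. Of these 7 genes, 5 fell at 6 h and 7 at 12 h. Pole, the catalytic subunit of the leading-strand polymerase epsilon, had 10.01, 10.00, 10.01 and 10.02 untreated at 6 h and 9.40 to 9.71 with RA. At 12 h it had 9.93, 10.11, 9.83 and 10.08 untreated and 8.52 to 9.50 (median 8.97) with RA, with no overlap at either time. Its change was -0.48 ± 0.12 at 6 h and -1.03 ± 0.12 at 12 h, a ratio of RA to untreated of 0.49 (limma adjusted p = 2.27e-08). Prim1, the catalytic subunit of primase, which makes the RNA primers, fell by 0.89 at 12 h, and Pold1, the catalytic subunit of the lagging-strand polymerase delta, by 0.62 at 6 h and 0.77 at 12 h. The smallest change at 12 h was that of Pola2, a subunit of polymerase alpha (-0.37 ± 0.08), and at 6 h Pola2 and Prim1 (-0.21 and -0.42) missed the threshold.

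Pole2, the second subunit of polymerase epsilon, was the lead gene of this role because it fell in 4 of the 8 RA comparisons. In transgenic PML/RARA leukaemia it had 10.21, 10.23, 10.29 and 10.24 untreated at 6 h and 9.62 to 10.07 with RA (median 9.80), without overlap. At the later time it had 10.50, 10.38, 9.84 and 10.10 untreated and 9.35 to 10.15 with RA (median 9.61), with overlap. The changes were -0.44 ± 0.12 (limma adjusted p = 0.0089) and -0.54 ± 0.12 (adjusted p = 0.000498).

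Among the genes that finish and protect the new strands, most passed the test only at 12 h. Lig1, the ligase that joins Okazaki fragments, had 10.01, 10.03, 9.90 and 10.03 untreated and 9.57 to 9.88 with RA (median 9.70) at 6 h. At 12 h it had 9.81, 10.19, 9.90 and 10.10 untreated and 9.01 to 9.61 with RA (median 9.40). The groups were separate at both times, though the 6 h change missed the threshold (-0.27 ± 0.10, limma adjusted p = 0.0653). At 12 h Lig1 fell by 0.68 (adjusted p = 1.14e-06) and Fen1, the flap endonuclease of the same step, by 0.56. The 3 RPA genes, which coat single-stranded DNA, fell at 12 h, Rpa2 the most (-0.80 ± 0.11) and also at 6 h (-0.51 ± 0.12). Rpa3 had 10.18, 10.23, 9.89 and 9.96 untreated and 9.63 to 10.05 with RA at 6 h, and 9.72, 10.12, 9.77 and 9.72 untreated and 9.08 to 9.72 with RA at 12 h. Its groups overlapped at both times, and the change passed only at 12 h (-0.38 ± 0.13, adjusted p = 0.0243).

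The 3 genes of deoxynucleotide synthesis fell at 12 h. Tyms, thymidylate synthase, had 9.88, 9.94, 10.06 and 10.00 untreated and 8.86 to 9.65 with RA (median 9.39) at 12 h, without overlap. At 6 h it had 10.08, 10.13, 10.12 and 10.04 untreated and 9.55 to 10.13 with RA, and the groups overlapped. The changes were -0.31 ± 0.13 (limma adjusted p = 0.105) and -0.69 ± 0.12 (adjusted p = 5.49e-05). Rrm1 and Rrm2, the subunits of ribonucleotide reductase, changed by -0.22 and -0.24 at 6 h without passing and each fell by 0.59 at 12 h.

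The genes of chromatin replication moved early. Uhrf1, which recognises hemimethylated DNA behind the fork, fell by 0.60 at 6 h and 0.55 at 12 h. Chaf1a, the large subunit of the histone chaperone CAF-1, had 9.33, 9.35, 9.21 and 9.27 untreated and 8.84 to 9.08 with RA (median 8.94) at 6 h. At the later time it had 9.25, 9.66, 9.36 and 9.31 untreated and 8.49 to 9.04 with RA (median 8.69). No RA array reached an untreated one, with changes of -0.33 ± 0.10 (limma adjusted p = 0.0164) and -0.65 ± 0.09 (adjusted p = 1.56e-06). Chaf1b, the middle subunit, fell at 6 h (-0.40 ± 0.10, adjusted p = 0.00402) and was the 1 gene called at 6 h that missed the threshold at 12 h (-0.24 ± 0.09, adjusted p = 0.0633).

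The 4 E2F and cyclin E genes, which drive entry into S phase, did not move together. E2f1, an activating E2F factor, fell by 0.61 at 6 h (limma adjusted p = 1.88e-05) and 0.59 at 12 h, and Ccne2, cyclin E2, by 0.65 and 0.79. Ccne1, cyclin E1, changed by -0.10 ± 0.13 and -0.20 ± 0.13 and missed the threshold at both times. E2f2, another activating E2F factor, had 8.43, 8.28, 8.65 and 7.92 untreated and 8.33 to 9.62 with RA (median 8.72) at 6 h, and 7.86, 8.27, 8.40 and 7.98 untreated and 7.79 to 9.14 with RA (median 8.40) at 12 h. Its groups overlapped, and its positive changes did not pass the test (0.46 ± 0.20, adjusted p = 0.135, and 0.33 ± 0.19, adjusted p = 0.286).

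**Figure D4:**
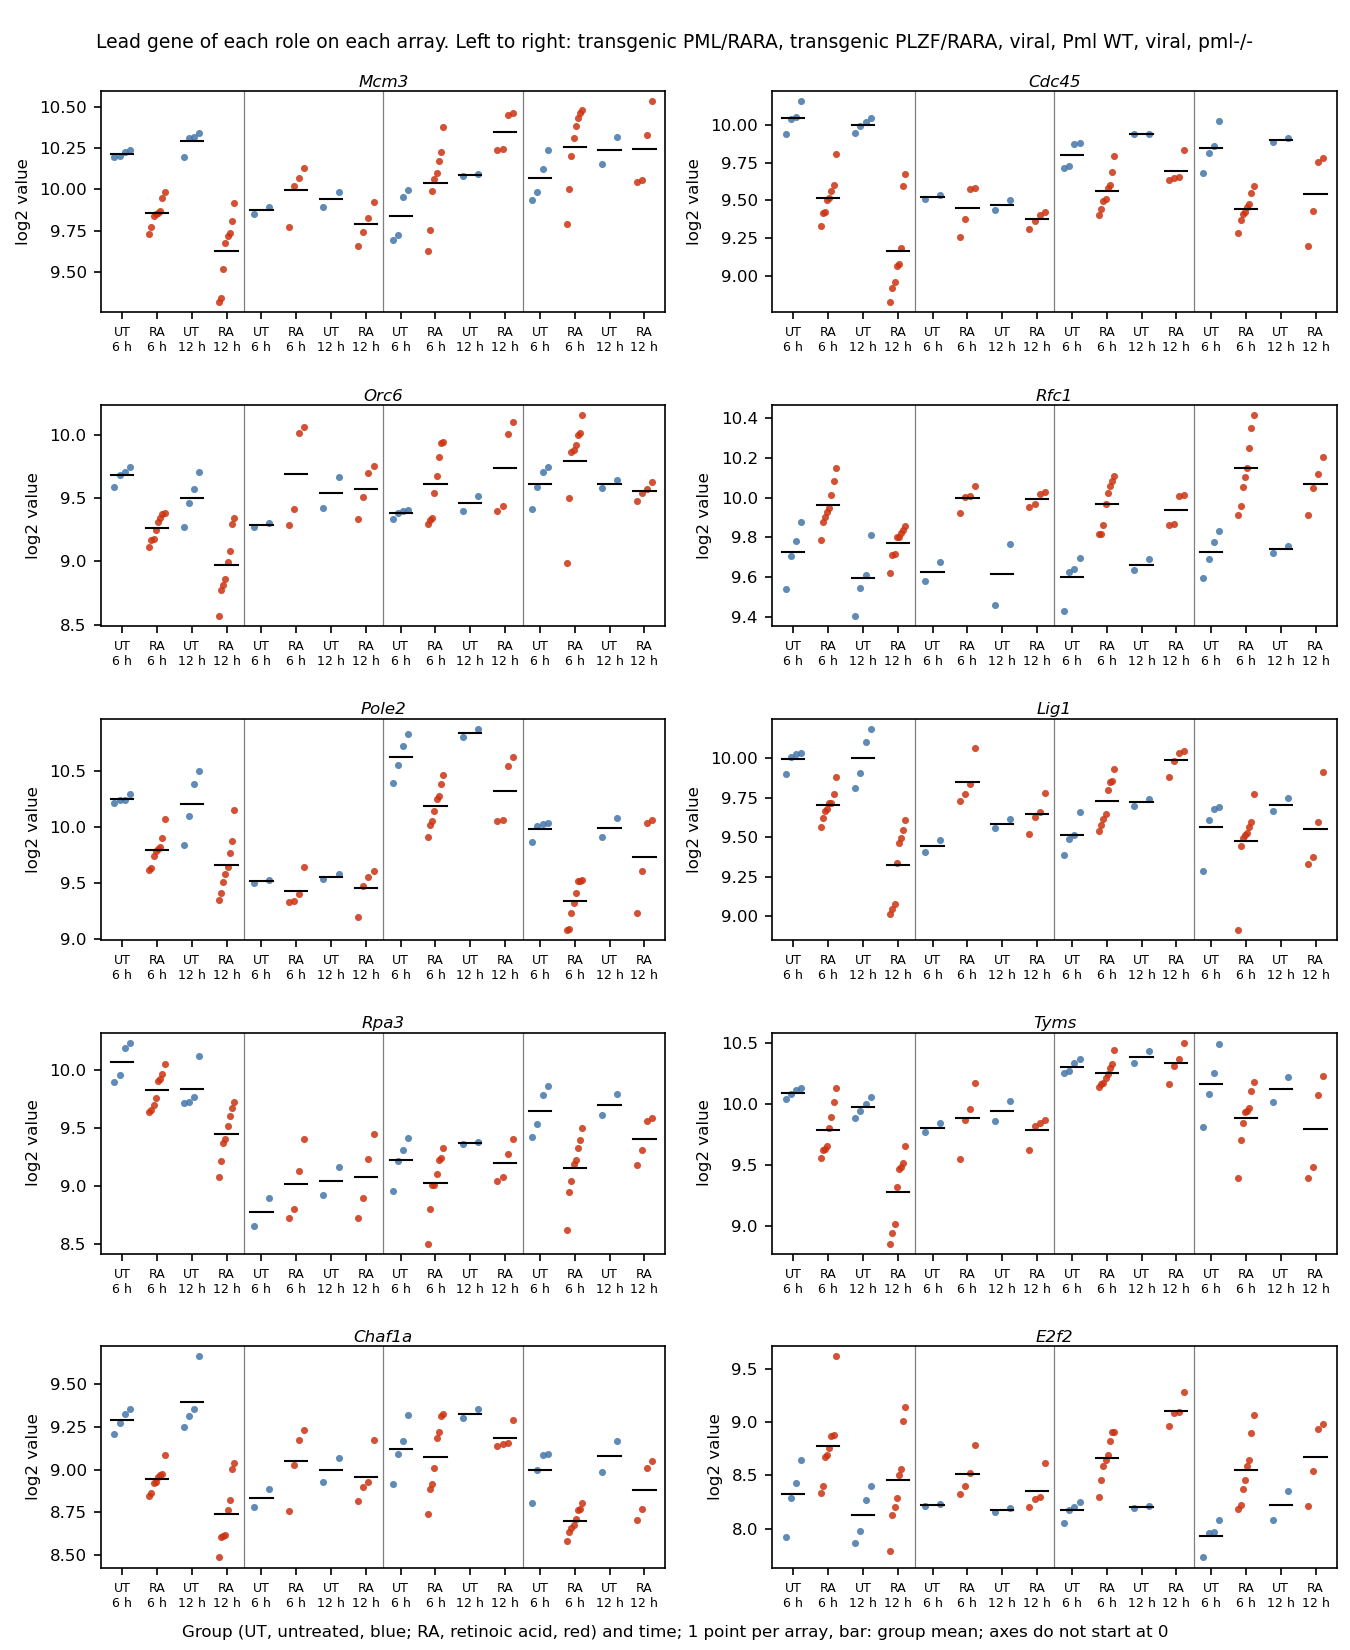
Log2 value of the lead gene of each role on every array (1 point per array, untreated blue, RA red, bar for the group mean), from left to right in transgenic PML/RARA, transgenic PLZF/RARA, viral WT and viral pml-/- leukaemia. Mcm3, Cdc45 and Chaf1a separate RA from untreated arrays in transgenic PML/RARA leukaemia, while Rfc1 is higher with RA in all 4 panels.

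The changes at 12 h were more negative than at 6 h for 41 of the 44 genes, with a median difference of -0.25. No gene passed the test of the difference between times by limma (0 of 44), and of all genes 0.231% did. At an unadjusted p under 0.05, 16 were lower, where 3.5% of all genes were. The largest differences were those of Rfc4 (-0.60 ± 0.21, adjusted p = 0.287), Pole (-0.56 ± 0.17, adjusted p = 0.196) and Mcm10 (-0.52 ± 0.16, adjusted p = 0.233). Without RA replicate 1 of the 12 h group, 1 gene passed. In all, 20 genes fell at both times and 20 at 12 h only.

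Of the 15 genes with E2F-type letters in their window, 9 fell at 6 h and 14 at 12 h, E2f2 being the exception. Of the 22 with a window and no match, 8 and 19 fell. The median change at 12 h was -0.59 with a match and -0.57 without. The letters are a description of these windows and no measure of binding.

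Some markers of other marrow cells were called too in transgenic PML/RARA marrow, where 5.81% of all genes rose and 8.54% fell at 6 h. At 12 h 9.88% of all genes rose there and 11.7% fell. Among 8 erythroid markers, Klf1 (0.77 ± 0.24) was the 1 that rose at 6 h, and 6 rose at 12 h, among them Rhag (1.45 ± 0.41) and Slc4a1 (1.09 ± 0.35). Their mean level was 7.82 to 9.40 on untreated and 8.24 to 10.41 on RA arrays of transgenic PML/RARA marrow. Mature neutrophil markers had 1 of 12 rises at 6 h (Itgam, 0.47 ± 0.11) and 4 at 12 h, with Itgam at 1.18 ± 0.11, and 1 fall, Mmp8, at -0.84 ± 0.30. B cell markers had 2 of 11 rises at 12 h (Vpreb3 and Blnk) and 1 fall (Vpreb1). Of 9 monocyte and macrophage markers, Irf8 (0.75 ± 0.15) and Cd14 (0.84 ± 0.17) rose at 6 h and Cd14 (1.53 ± 0.16) and C1qa (0.42 ± 0.11) at 12 h. Their mean level at 12 h was 8.17 to 8.58 untreated and 8.70 to 9.01 with RA. Of 4 megakaryocyte markers, Pf4 rose at 12 h (0.64 ± 0.20). Their part in the falls of the replication genes was not tested.

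The same question in transgenic PLZF/RARA leukaemia had few calls. Of the 44 genes 0 fell and 1 rose at either time (limma), and the riser was Rfc1. Of all genes 0.747% fell and 1.45% rose at 6 h, and 1.57% fell and 2.46% rose at 12 h. At an unadjusted p under 0.05, 9 genes were higher and 0 lower at 6 h, where 9.7% of all genes were higher and 4.45% lower. At 12 h 2 were higher and 1 lower, where 6.79% of all genes were higher and 8.59% lower. The median change of the 44 genes was 0.21 at 6 h and -0.07 at 12 h, where all genes had 0.06 and -0.05. Of 12 mature neutrophil markers 0 were called at 6 h, and 5 rose and 0 fell at 12 h, with a median of 0.61. Among 9 monocyte and macrophage markers 0 were called at 6 h, and 3 rose and 0 fell at 12 h.

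Rfc1 had 9.58 and 9.68 untreated and 9.92, 10.01, 10.00 and 10.06 with RA at 6 h, and 9.77 and 9.46 untreated and 9.97, 10.03, 9.95 and 10.02 with RA at 12 h. All RA arrays were above the untreated ones. The rise was 0.37 ± 0.09 (limma adjusted p = 0.024) and 0.38 ± 0.09 (adjusted p = 0.0104). It was lost at 6 h when either untreated array was left out, after quantile normalization and after subtraction of the array medians, and at 12 h without untreated replicate 2.

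The lead genes that fell with PML/RARA did not pass the test here. Mcm3 had 9.90 and 9.86 untreated and 10.02, 10.07, 10.13 and 9.77 with RA at 6 h, and 9.90 and 9.98 untreated and 9.93, 9.66, 9.83 and 9.74 with RA at 12 h. Cdc45 had 9.53 and 9.51 untreated and 9.58, 9.57, 9.25 and 9.37 with RA at 6 h, and 9.44 and 9.50 untreated and 9.36, 9.31, 9.42 and 9.40 with RA at 12 h. Lig1 had 9.48 and 9.41 untreated and 10.06, 9.73, 9.83 and 9.78 with RA at 6 h, and 9.61 and 9.56 untreated and 9.78, 9.52, 9.63 and 9.66 with RA at 12 h. At 6 h every RA array of Lig1 was above the untreated ones (0.41 ± 0.13, limma adjusted p = 0.109). The untreated arrays overlapped the RA range for Mcm3 at both times, and Cdc45 at 12 h was lower on every RA array (-0.09 ± 0.16, adjusted p = 0.828). Pole had 10.03 and 9.95 untreated and 9.78, 9.36, 9.77 and 9.80 with RA at 12 h, below both untreated arrays but not past the test (-0.31 ± 0.17, adjusted p = 0.377).

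The difference between the fusions was tested itself, as the RA effect in PML/RARA minus that in PLZF/RARA averaged over both times. It was negative for 43 of the 44 genes and called lower for 30 and higher for 0 (limma), where 4.07% of all genes were called lower and 3.35% higher. The median difference was -0.49, and that of all genes was close to 0. The largest were those of Gins1 (-0.98 ± 0.22, adjusted p = 0.00346), Prim1 (-0.85 ± 0.18, adjusted p = 0.00223), Orc1 (-0.83 ± 0.19, adjusted p = 0.00438) and Rfc3 (-0.80 ± 0.22, adjusted p = 0.0202). All 6 MCM2-7 genes were called, from -0.66 (Mcm4) to -0.37 (Mcm5). The lowest adjusted p belonged to Lig1 (-0.70 ± 0.12, adjusted p = 0.000133).

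The 14 genes without a called difference were Gins2, Cdc6, Cdt1, Pcna, Rfc1, Rfc5, Pola2, Pold2, Pole2, Rpa3, Tyms, E2f2, Ccne1 and Ccne2. E2f2 alone had a positive difference (0.16 ± 0.24, limma adjusted p = 0.798). Rfc1, which rose with both fusions, differed by -0.14 ± 0.08 (adjusted p = 0.335). For Pole2 the difference was -0.40 ± 0.14 (adjusted p = 0.0849) and for Tyms -0.46 ± 0.15 (adjusted p = 0.0552).

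Without treatment the fusions already differed in these genes. Of the 44, 27 were higher and 1 was lower in untreated PML/RARA than in untreated PLZF/RARA (limma, both times averaged), with a median difference of 0.36. Of all genes 13.1% were higher and 12.2% lower, with a median of 0.01. The mean of the 44 genes was 9.53 to 9.69 on the untreated PLZF/RARA arrays, below all untreated PML/RARA arrays. The largest differences were those of Rpa3 (0.99 ± 0.13, adjusted p = 2.14e-07), Gins1 (0.96 ± 0.18), Mcm2 (0.75 ± 0.11) and Orc1 (0.74 ± 0.16). Rpa3 had 8.90 and 8.65 at 6 h and 9.17 and 8.92 at 12 h in PLZF/RARA, where the lowest untreated PML/RARA array had 9.72. All 6 MCM2-7 genes and E2f1 (0.55 ± 0.10) were higher.

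Pold2, a subunit of polymerase delta, was the 1 gene that was lower in untreated PML/RARA (-0.41 ± 0.11, limma adjusted p = 0.00503). Rfc1 (-0.01 ± 0.07), E2f2 (0.02 ± 0.20) and Rpa2 (0.05 ± 0.12) were near 0 and not called. The 27 genes that were higher in untreated PML/RARA all fell with RA at 12 h in that leukaemia, and 22 of them were also called lower in the difference of RA effects. These comparisons share the untreated arrays, so the overlap is no independent result.

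The levels under RA are given as a description. At 12 h the mean of the 44 genes was 9.38 ± 0.21 (SD, n = 8) in RA-treated PML/RARA, and 9.60 ± 0.13 (SD, n = 4) and 9.64 ± 0.07 (SD, n = 2) in RA-treated and untreated PLZF/RARA. Their ranges overlapped, and these levels were not tested against each other. Pole2 had a mean of 9.66 in RA-treated PML/RARA and 9.46 in RA-treated PLZF/RARA, while Cdc45 had 9.16 and 9.37.

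**Figure D5:**
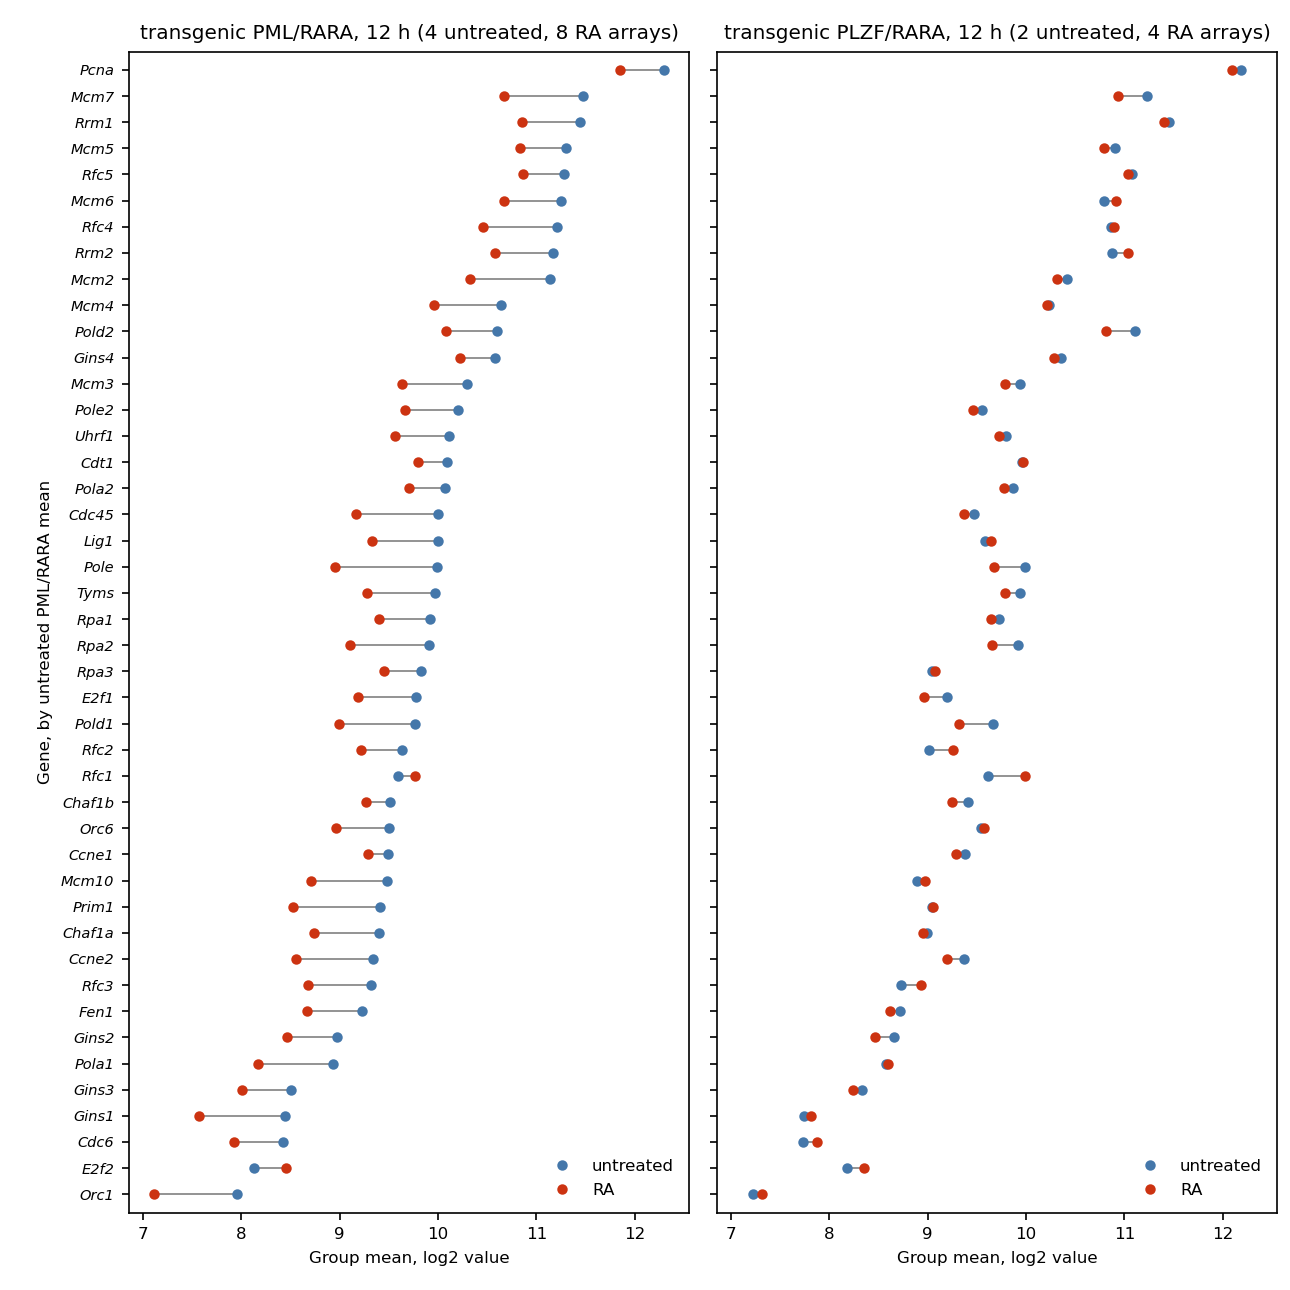
Group means (log2 value) of the 44 genes at 12 h in transgenic PML/RARA (left, 4 untreated and 8 RA arrays) and transgenic PLZF/RARA leukaemia (right, 2 untreated and 4 RA arrays), untreated in blue and RA in red, in the order of the untreated PML/RARA means. All but 2 genes, Rfc1 and E2f2, have a lower RA mean on the left, and on the right the pairs of points lie closer together.

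The erythroid markers also differed between the untreated fusions, where 13.1% of all genes were higher in PML/RARA and 12.2% lower. Of 8, 7 were higher in PML/RARA and 0 lower, with a median of 1.94, and their mean was 6.40 to 6.67 on the untreated PLZF/RARA arrays. In the viral model, which also carries PML/RARA, the untreated range was 6.39 to 7.35. T and NK cell markers were higher for 7 of 8, B cell markers for 5 of 11 and mature neutrophil markers for 6 of 12. Of 9 monocyte and macrophage markers, 5 were higher and 2 lower, and of 4 megakaryocyte markers 3 were higher and 1 lower. Their part in the untreated difference of the replication genes was not tested.

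In the viral model the question was whether the response depends on Pml. In WT viral leukaemia 3 of the 44 genes rose and 1 fell at 6 h, and 1 rose and 0 fell at 12 h (limma). Of all genes 5.44% rose and 4.44% fell at 6 h, and 3.03% rose and 3.07% fell at 12 h. The median change of the 44 genes was 0.02 at 6 h and close to 0 at 12 h. The genes that rose were Ccne1, E2f2 and Rfc1, and Pole2 fell.

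E2f2 had 8.06, 8.21, 8.17 and 8.26 untreated and 8.29 to 8.91 with RA (median 8.67) at 6 h, and 8.21 and 8.19 untreated and 9.09, 9.29, 8.96 and 9.09 with RA at 12 h. Every RA array was above the untreated ones. The rise was 0.49 ± 0.14 at 6 h (limma adjusted p = 0.0222) and 0.91 ± 0.20 at 12 h (adjusted p = 0.00469), the largest rise of any of the 44 genes. The 6 h call of E2f2 was lost in 6 of 22 alternative analyses, and those of Ccne1 and Pole2 each in 5. Ccne1 had 8.77, 8.99, 9.12 and 9.44 untreated and 9.21 to 10.33 with RA (median 9.63) at 6 h, with overlap, and rose by 0.61 ± 0.17 (adjusted p = 0.0201). At 12 h it had 9.39 and 9.38 untreated and 9.90, 10.01, 10.31 and 10.09 with RA, all higher, but missed the threshold (0.69 ± 0.25, adjusted p = 0.098).

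Pole2 had 10.39, 10.55, 10.83 and 10.72 untreated and 9.91 to 10.46 with RA (median 10.20) at 6 h, with overlap, and fell by 0.43 (limma adjusted p = 0.023). At the later time it had 10.87 and 10.80 untreated and 10.62, 10.54, 10.06 and 10.05 with RA, all lower (-0.52 ± 0.18, adjusted p = 0.0836). Rfc1 had 9.43, 9.63, 9.64 and 9.70 untreated and 9.82 to 10.11 with RA at 6 h, and rose by 0.37 ± 0.08 (adjusted p = 0.00235) without overlap. Mcm3, by contrast with the transgenic PML/RARA arrays, had 9.70, 9.72, 9.95 and 10.00 untreated and 9.63 to 10.38 with RA at 6 h (0.20 ± 0.11, adjusted p = 0.344). At 12 h it had 10.09 and 10.08 untreated and 10.24, 10.24, 10.45 and 10.46 with RA (0.26 ± 0.16, adjusted p = 0.464).

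The 6 h arrays of the WT viral leukaemia came from 2 batches that differed in level. The mean of the 44 genes was 9.77 and 9.85 untreated and 9.78 to 10.00 with RA in batch 3, and 9.50 and 9.61 untreated and 9.36 to 9.70 with RA in batch 4. The fit holds the batch as a term, and RA and untreated arrays overlapped within each batch. Within batch 3 alone 0 genes were called (limma), where 1.17% of all genes rose and 0.286% fell, and within batch 4 alone 1 rose, where 3.24% rose and 3.36% fell.

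In pml-/- viral leukaemia 6 genes fell and 2 rose at 6 h, and 0 passed in either direction at 12 h (limma). Of all genes 6.38% fell and 4.97% rose at 6 h, and 1.83% fell and 4.22% rose at 12 h. The falls at 6 h were those of Pole2 (-0.64 ± 0.13, adjusted p = 0.000632), Rpa3 (-0.49 ± 0.14, adjusted p = 0.0164), Pold1 (-0.43 ± 0.12, adjusted p = 0.0153), Cdc45 (-0.40 ± 0.09, adjusted p = 0.00161), Rfc2 (-0.38 ± 0.12) and Chaf1a (-0.30 ± 0.08). The rises were those of E2f2 (0.62 ± 0.14, adjusted p = 0.00322) and Rfc1 (0.42 ± 0.08, adjusted p = 0.000482). The 6 h call was lost in 7 of 22 alternative analyses for Rfc2, in 5 for Pold1 and Chaf1a and in 4 for Rpa3. Within batch 3 alone 1 gene rose at 6 h, where 1.26% of all genes rose and 0.577% fell, and within batch 4 alone 2 fell, where 2.69% rose and 2.35% fell. At 12 h 36 of the 44 changes were negative, with a median of -0.21 against 0.01 for all genes. At an unadjusted p under 0.05, 6 were lower and 2 higher there, where 6.95% of all genes were lower and 9.32% higher. Mature neutrophil markers rose for 5 of 12 at that time, with a median of 1.05 and Ngp at 1.99 ± 0.23. Their mean level was 9.20 and 9.55 untreated and 9.84 to 10.60 with RA, and their part in the changes of the replication genes was not tested.

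Pole2 had 10.03, 9.87, 10.00 and 10.03 untreated and 9.09 to 9.52 with RA (median 9.37) at 6 h, without overlap. Cdc45 had 10.03, 9.82, 9.68 and 9.86 untreated and 9.28 to 9.59 with RA (median 9.44), also without overlap. Chaf1a ran from 8.80 to 9.09 untreated (median 9.04) and from 8.58 to 8.80 with RA (median 8.69), touching only at the ends of the ranges. Rpa3 had 9.86, 9.53, 9.42 and 9.78 untreated and 8.62 to 9.50 with RA (median 9.20), with overlap. E2f2 had 7.97, 8.09, 7.73 and 7.96 untreated and 8.18 to 9.07 with RA, all above the untreated arrays. Rfc1 had 9.83, 9.78, 9.60 and 9.69 untreated and 9.91 to 10.42 with RA, again all above.

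At 12 h the pml-/- arrays were spread widely. Cdc45 had 9.92 and 9.89 untreated and 9.78, 9.20, 9.75 and 9.43 with RA (-0.36 ± 0.12, limma adjusted p = 0.077). Tyms had 10.22 and 10.02 untreated and 10.23, 9.40, 10.08 and 9.48 with RA (-0.32 ± 0.18, adjusted p = 0.409). For Tyms the groups overlapped, and for Cdc45 they did not. Rfc1 had 9.76 and 9.72 untreated and 10.12, 10.21, 9.91 and 10.05 with RA (0.33 ± 0.11, adjusted p = 0.088).

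The effect of Pml on the response was tested as the RA effect in WT minus that in pml-/- over both times. The difference was positive for 40 of the 44 genes, with a median of 0.15, but 0 passed the test (limma), where 1.13% of all genes did in either direction. At an unadjusted p under 0.05 there were 2, and 7.67% of all genes in either direction. The largest were those of Ccne1 (0.42 ± 0.21, adjusted p = 0.705) and Lig1 (0.36 ± 0.14, adjusted p = 0.347). For Pole2 the difference was -0.02 ± 0.15. A difference between the backgrounds was therefore not shown for any of the 44 genes.

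In untreated viral leukaemias 3 genes were higher and 2 lower in WT than in pml-/- (limma), where 9.92% of all genes were higher and 10.9% lower. Pole2 (0.74 ± 0.13, adjusted p = 2.69e-05), Rfc3 (0.67 ± 0.15, adjusted p = 0.000897) and Rrm2 (0.51 ± 0.15, adjusted p = 0.0152) were higher. Pold2 (-0.94 ± 0.15, adjusted p = 1.05e-05) and Rpa3 (-0.38 ± 0.14, adjusted p = 0.0494) were lower, and the call of Rpa3 was lost in 12 of 20 alternative analyses. Mature neutrophil markers were higher in WT for 12 of 12, with list means of 11.23 to 11.94 against 9.20 to 10.03 in pml-/-, and their part in these differences was not tested.

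Whether the effect of RA differed between the times was tested in the other leukaemias too. None of the 44 genes passed in PLZF/RARA, WT viral or pml-/- viral leukaemia (limma), where 0.0251%, 0% and 0.0351% of all genes did. At an unadjusted p under 0.05, 5 genes were lower in PLZF/RARA, where 8.82% of all genes were, and 0 in either direction in WT or pml-/- viral leukaemia, where 1.49% and 6.31% of all genes were. The median of all genes was itself -0.11 in PLZF/RARA, and that of the 44 genes was -0.24.

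A comparison of the PML/RARA leukaemias of both models was added after the values were seen, with 1 fit over all 72 arrays and each RA effect taken within its model. The RA effect in transgenic PML/RARA minus that in WT viral leukaemia was negative for 44 of the 44 genes, with a median of -0.45. It was called lower for 28 and higher for 0 (limma), where 3.01% of all genes were called lower and 2.48% higher. Ccne1 (-0.80 ± 0.18, adjusted p = 0.00183) had the largest difference, followed by Gins1 (-0.77 ± 0.21, adjusted p = 0.0137), Rpa2 (-0.74 ± 0.16) and Mcm3 (-0.74 ± 0.11, adjusted p = 7.58e-06). Pole2 (-0.02 ± 0.14), which fell in both, and Rfc1 (-0.09 ± 0.08), which rose in both, were not called. The models share no batch, and model and batch cannot be told apart.

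Over the 8 RA comparisons each of the 44 genes was called at least once, where 33.9% of all genes were. Of them 20 were called once, 18 in 2 comparisons, 4 in 3, Pole2 in 4 and Rfc1 in 6. E2f2 and Ccne1 were called only outside transgenic PML/RARA leukaemia. The genes called in 3 were Cdc45, Chaf1a and Pold1, each lower in transgenic PML/RARA and in pml-/- viral leukaemia, and E2f2, each time higher.

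Other replication factors, a list of 39 genes, also fell in transgenic PML/RARA leukaemia. There 20 fell and 0 rose at 6 h, and 29 fell and 1 rose at 12 h, with medians of -0.29 and -0.48, beside 8.54% of all genes falling at 6 h and 11.7% at 12 h. Dna2, a nuclease and helicase of Okazaki fragment processing, fell by 0.70 and 1.17 on the log2 scale. Ung, which removes uracil from DNA, fell by 0.56 and 0.75, and Recql4, a helicase of replication initiation, by 0.51 and 0.59. Pold4, the small subunit of polymerase delta, rose by 0.50 at 12 h. In PLZF/RARA 0 passed at 6 h, and 1 rose at 12 h, the p53-inducible ribonucleotide reductase subunit Rrm2b (0.51 ± 0.12), beside 2.46% of all genes.

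In the viral leukaemias the same list had calls in both directions. In WT 3 of the 39 rose and 2 fell at 6 h, and 1 rose and 3 fell at 12 h, beside 5.44% and 4.44% of all genes at 6 h and 3.03% and 3.07% at 12 h. In pml-/- 3 rose and 6 fell at 6 h, and 1 rose and 2 fell at 12 h, beside 4.97% and 6.38% at 6 h and 4.22% and 1.83% at 12 h. Tk1, thymidine kinase, rose by 0.41 ± 0.07 in WT and 0.33 ± 0.07 in pml-/- at 6 h, Dut, which removes dUTP, by 0.44 ± 0.11 and 0.61 ± 0.11, and Gmnn, the inhibitor of CDT1, by 0.58 ± 0.14 and 0.55 ± 0.14. Dna2 fell in both (-0.49 ± 0.09 and -0.41 ± 0.09). Pole4, another polymerase epsilon subunit, fell in WT at 6 h (-0.28 ± 0.08), as Pole2 did. Cdc7, the kinase that fires origins, fell in pml-/- at 6 h (-0.75 ± 0.14), beside Mcm8 (-0.47 ± 0.09), and Top2a, topoisomerase II alpha, fell there at 12 h (-0.44 ± 0.13).

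Of 27 regulators of the G1/S step, which the E2F and cyclin E genes join, 2 rose and 8 fell at 6 h and 2 rose and 12 fell at 12 h in transgenic PML/RARA leukaemia. There 5.81% of all genes rose and 8.54% fell at 6 h, and 9.88% rose and 11.7% fell at 12 h. Cdkn2d, the CDK4/6 inhibitor p19, rose by 1.23 ± 0.16 and 0.94 ± 0.16, and Cdkn1c, the CDK inhibitor p57, by 0.81 ± 0.13 and 0.92 ± 0.12. The 3 falls with the largest test statistic at 6 h were those of Myc (-0.66 ± 0.10), E2f8, a repressive E2F factor (-0.71 ± 0.11), and Cdk6 (-0.39 ± 0.08). At 12 h they were those of E2f8 (-0.85 ± 0.11), Cdk4 (-0.44 ± 0.06) and the pocket protein gene Rbl1 (-0.73 ± 0.11). Cdkn2d also rose by 1.63 ± 0.19 and 1.60 ± 0.26 in WT viral and by 2.22 ± 0.19 and 1.57 ± 0.26 in pml-/- viral leukaemia. In PLZF/RARA it rose by 1.12 ± 0.22 at 6 h and missed the threshold at 12 h (0.60 ± 0.22, limma adjusted p = 0.146). E2f8 was the 1 regulator called there at 12 h, with a fall (-0.63 ± 0.16, limma adjusted p = 0.0119), beside 1.57% of all genes falling. In WT viral leukaemia 2 of the 27 rose and 3 fell at 6 h and at 12 h. Of all genes 5.44% rose and 4.44% fell there at 6 h, and 3.03% and 3.07% at 12 h. In pml-/- viral leukaemia 2 rose and 8 fell at 6 h, and 2 rose and 3 fell at 12 h. There 4.97% of all genes rose and 6.38% fell at 6 h, and 4.22% and 1.83% at 12 h. Cdk2, the partner of cyclin E, rose in both viral leukaemias (0.30 ± 0.08 at 6 h and 0.44 ± 0.11 at 12 h in WT). E2f5, a repressive E2F factor, fell in both (-0.51 ± 0.12 and -0.68 ± 0.18 in WT). Myc also fell in WT (-0.92 ± 0.26 and -1.41 ± 0.37).

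Fewer mitosis genes changed at 6 h. Of 24, 1 rose (Aurka, 0.35 ± 0.09) and 1 fell (Espl1, separase, -0.42 ± 0.14) at 6 h in transgenic PML/RARA leukaemia, beside 5.81% and 8.54% of all genes, with a median of -0.03 where the 44 replication genes had -0.32. At 12 h 13 fell and 0 rose, beside 11.7% and 9.88% of all genes, with a median of -0.31. Those that fell included the mitotic transcription factor Foxm1 (-0.48 ± 0.09), the condensin subunit Ncaph (-0.56 ± 0.12) and the kinase Aurkb (-0.38 ± 0.08). In pml-/- viral leukaemia 7 of the 24 fell at 12 h, beside 1.83% of all genes and 0 of the 44 replication genes (limma), among them Mad2l1 (-0.42 ± 0.09), a gene of the spindle checkpoint, and Prc1 (-0.52 ± 0.11), which bundles microtubules. Whether the lists differ from each other was not tested.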

How the data were processed

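RNA of 72 arrays was measured on Affymetrix Mouse Gene 1.0 ST chips. The deposited values are log2 signals that the authors made with RMA in the affy package, per the submitters' processing notes, without versions. RMA corrects background, equalises the distributions of the arrays and summarises probes, so a shift shared by all genes may be reduced or lost in these values. The array medians still ran from 6.56 to 6.81. Of 35556 probe sets, 21789 had 1 gene symbol in the platform annotation, 1621 had several and 12146 were not listed there. The brightest per symbol was kept, giving 19938 genes.

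Each model was fitted on its 36 arrays with limma 3.58.1 in R 4.3.3, with 8 groups and the labelled batch as terms, and called at a Benjamini-Hochberg adjusted p under 0.05 over all genes, two-sided. Errors after ± are standard errors unless named SD. The step was tested on simulated data. The lead gene of each role is the one called in most RA comparisons, ties going to the lowest sum of adjusted p-values, and others named are the up to 4 largest called changes per direction and comparison, up to 3 called genes per direction of each other list, and exceptions, some chosen after their values were seen. The 44 genes and all lists were chosen with earlier results of these data known. Titles give every array the same replicate number and a running sample code that is not said to tie arrays together, so arrays were numbered by order and not paired. Alternatives were other scalings, filters on dim genes, probe set choice, batches, pooled controls and leaving out each array. Promoter windows came from RefSeq.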

Additional observations from a re-analysis of the deposited data

Results flagged for a closer look

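Among 132 sets of arrays of the lead genes and of the mean of the 44 genes, 5 held 1 array far from the others of its group. Chance gives about 1 in 20, or 6.6. Cdc45 had 9.84 in RA replicate 2 of WT viral leukaemia at 12 h, with the others at 9.64 to 9.65. Chaf1a had 9.29 in RA replicate 1 of the same group, with the others at 9.14 to 9.16. Lig1 had 8.92 in RA replicate 8 of pml-/- viral leukaemia at 6 h, with the others at 9.45 to 9.77. Rpa3 had 10.12 in untreated replicate 2 of transgenic PML/RARA leukaemia at 12 h, with the others at 9.72 to 9.77. E2f2 had 9.62 in RA replicate 5 of transgenic PML/RARA leukaemia at 6 h, with the others at 8.33 to 8.88.

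The effect of RA on 5 lead genes differed between leukaemias by the test of the difference itself (limma). Transgenic PML/RARA minus PLZF/RARA gave -0.50 for Mcm3 (adjusted p = 0.0022), -0.61 for Cdc45 (adjusted p = 0.00367), -0.69 for Orc6 (adjusted p = 0.00415), -0.70 for Lig1 (adjusted p = 0.000133) and -0.58 for Chaf1a (adjusted p = 0.00122). Transgenic PML/RARA minus WT viral leukaemia, the comparison added later, gave -0.74 for Mcm3 (adjusted p = 7.58e-06), -0.45 for Cdc45 (adjusted p = 0.00693), -0.72 for Orc6 (adjusted p = 0.00281), -0.71 for Lig1 (adjusted p = 3.56e-05) and -0.39 for Chaf1a (adjusted p = 0.0084). Both differences use the same transgenic PML/RARA arrays.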

How the results depend on the processing

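No called change reversed under the alternatives run, and of the counts of called genes 127 of 139 stayed within 1.5 times under other settings and 221 of 240 when 1 array was left out. With quantile normalization the count went from 1 to 0 in PLZF/RARA at 6 h, from 0 to 2 in pml-/- viral at 12 h and from 5 to 8 between the untreated viral leukaemias, and subtracting array medians gave 0 in PLZF/RARA at 6 h. Pooling the untreated arrays of both times gave 34 in transgenic PML/RARA at 6 h, 8 in WT viral at 6 h and at 12 h, and 5 in pml-/- viral at 12 h. Of all 19938 genes, pooling called 1812 higher and 2344 lower in transgenic PML/RARA at 6 h. In WT viral it called 1506 higher and 1445 lower at 6 h, and 1405 higher and 1540 lower at 12 h. In pml-/- viral at 12 h it called 1454 higher and 1216 lower. Batch 3 alone gave 0 in WT and 1 in pml-/- viral leukaemia at 6 h, and batch 4 alone 1 and 2, with fewer arrays. Leaving out 1 array gave 17 to 24 and 39 to 42 calls in transgenic PML/RARA at 6 h and 12 h, 25 to 38 for the difference between fusions, 20 to 29 for their untreated levels and 19 to 32 for the added comparison between models. In PLZF/RARA it gave 0 to 2 at 6 h (0 without either untreated replicate, 2 without RA replicate 2 or 4) and 0 to 1 at 12 h (0 without untreated replicate 2). The difference between times in transgenic PML/RARA gave 0 to 1 (1 without RA replicate 1 of 12 h). WT viral gave 1 to 6 at 6 h (2 without untreated replicate 1 or 2, 1 without 3) and 0 to 2 at 12 h (0 without either untreated array, 2 without RA replicate 1). In pml-/- viral it gave 4 to 9 at 6 h (4 without untreated replicate 1 or 4, 5 without 2) and 0 to 2 at 12 h (2 without RA replicate 1 or 3). The untreated viral difference gave 3 to 7 (3 without WT replicate 1 or pml-/- replicate 2 of 12 h). The causes were not tested. No paired analysis was possible because the labels give every array the same replicate number, and the sample codes in their titles are not said to tie untreated to treated arrays.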
